A study of Mus musculus with 51 samples.

Results

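The genes described here are Arhgap44, Vwa3a, Fbxl13 and Nxn, 4 of the 40077 genes in the expression table of a mouse study of the enzyme UBA1. They were picked because their RNA differed widely between Myc-CaP libraries carrying a guide RNA against Uba1 (sgUba1) and Myc-CaP libraries carrying a nontargeting guide (sgNC), so the sgUba1 and sgNC values of Myc-CaP are given below as a description, and no test of them is read. The question put to the data is whether each gene departs from the other Myc-CaP libraries on the sgUba1 side, where Uba1 was targeted, or on the sgNC side, where it was not. The libraries that can place it are parental cells, tumors with an empty vector and tumors from vehicle-treated mice, which carry neither guide.

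UBA1 is the main E1 enzyme of mammalian cells: it activates ubiquitin with ATP and hands it to the E2 enzymes, and from there E3 ligases pass it on to proteins. TAK-243 is a small molecule that blocks this activation. Of the genes themselves, Arhgap44 encodes a GTPase-activating protein with a BAR domain that acts on Rac and Cdc42, Vwa3a encodes a protein with von Willebrand factor A domains that is found in ciliated tissue, Fbxl13 encodes an F-box protein with leucine-rich repeats that belongs to the nexin-dynein regulatory complex of motile cilia, and Nxn encodes nucleoredoxin, a thioredoxin-family oxidoreductase that binds Dishevelled and restrains Wnt signalling.

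Bulk RNA sequencing covered 51 libraries, 7 of them B16-BL6 melanoma tumors and 44 from the FVB prostate cancer line Myc-CaP. The 16 cell libraries form 8 groups of 2: parental Myc-CaP cells untreated, with 50 nM TAK-243, with interferon-γ (IFN-γ) or with both, and sgNC and sgUba1 cells each with PBS or IFN-γ. The 28 Myc-CaP tumors grew under the skin of FVB mice and comprise 3 with empty vector (EV), 4 overexpressing Uba1 (Uba1 OE), 3 sgNC, 7 labelled sgUba1, 6 from vehicle-treated and 5 from TAK-243-treated mice, and the B16-BL6 tumors are 3 sgNC and 4 sgUba1. Cells were injected into both flanks, and the labels do not say which tumors shared a mouse. The labels of the vehicle and TAK-243 tumors name no vector and no guide. EV and Uba1 OE cells had been infected with lentivirus and selected with blasticidin. The sgRNA cells had been transfected, selected with puromycin and grown out from sorted single cells. An sgRNA line may therefore descend from 1 cell, and the labels name neither the clone nor the guide of any library. The study states that its data points are distinct samples but not whether the libraries of a cell group are separate cultures. The p-values for cells therefore measure the spread between these samples and no more.

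Total expected counts ran from 12860987 to 16793889 in the parental cell libraries and from 26768564 to 38032395 in the sgNC and sgUba1 cell libraries. Parental and sgRNA cells were treated as separate experiments, so line and experiment cannot be told apart between them. Among Myc-CaP tumors the EV, Uba1 OE, sgNC and sgUba1 libraries were the shallowest, with 8652097 to 14168313, against 26892870 to 35047070 for vehicle and 26121347 to 34500912 for TAK-243. Levels are given as CPM, counts scaled to library size with TMM factors, on which 3 counts correspond to 0.0774 to 0.328 CPM, depending on the library. Folds against a group with 0 counts throughout take 3 counts in each library as a floor, and ratios with a group of 1 to 3 counts in its libraries come with a 95% counting interval. Floors and intervals cover counting error only.

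The guide sequences are printed to show where in Uba1 they act and how far they are from the genes described here. The study's supplement lists 2 guides against Uba1 and 1 control guide, given 5′ to 3′ in lower case with the NGG motif next to the genomic site in capitals, and the control guide matched 0 of 6 Uba1 transcripts.
sgUba1 #1: taccaatgtcctcctcccgaAGG
sgUba1 #2: tagccgtggtatcaagctagTGG
Nontargeting control: acgtgtaaggcgaacgcctt
On GRCm38, the first guide matches the minus strand at chrX:20669136-20669155, in coding exon 5 of Uba1 (ENSMUSG00000001924.15), and the second matches the plus strand, which is the strand of the gene, at chrX:20670263-20670282 in coding exon 6. In the transcripts and promoter windows of Arhgap44, Vwa3a, Fbxl13 and Nxn, the nearest sites followed by an NGG motif had 8 to 9 mismatches to the first guide, 8 to 10 to the second and 7 to 9 to the control guide. Introns were not searched.

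Uba1 itself was measured first, as a check on the sgUba1 label. In cells, Uba1 was 523 and 511 CPM in untreated parental libraries, 611 and 600 in sgNC with PBS, and 337 and 323 in sgUba1 with PBS. With IFN-γ it was 651 and 664 in sgNC cells and 308 and 317 in sgUba1 cells. All 4 sgUba1 cell libraries lay under all 4 sgNC libraries, at 0.508 of their mean. Parental cells held 668 and 632 CPM of Uba1 with TAK-243, 614 and 636 with IFN-γ, and 734 and 715 with both. In tumors, Uba1 was 293, 283 and 310 CPM in sgNC replicates 1 to 3. Replicates 1 to 7 of the tumors labelled sgUba1 had 182, 189, 194, 341, 328, 341 and 353 CPM. Replicates 1 to 3 lay below every sgNC tumor and replicates 4 to 7 lay above every one, so for those 4 tumors the Uba1 RNA goes against the label, and the ratio of means was 0.932. The study reports partial depletion of UBA1 in its edited lines, mixed alleles in a representative Myc-CaP clone and less ubiquitinated protein in Uba1-depleted tumors. Which of these libraries those measurements cover is not stated, editing and protein were not measured here, and the phrase "labelled sgUba1" is kept for this reason. Over all genes, too, these libraries form 2 sets: chi-square per degree of freedom was 22.7 at most between replicates within 1 to 3 or within 4 to 7, and 61.3 to 86.9 between the sets. Distances of this size occur in other groups as well, since sgNC tumor replicate 2 stood at 83.8 and 62.1 from replicates 1 and 3, which were 13.2 apart, and pairs of vehicle and of TAK-243 tumors reached 99.2 and 89.5. Means over all 7, and folds from them, pool both sets. Uba1 was 296, 269 and 278 CPM in EV tumors and 710, 615, 690 and 735 in Uba1 OE tumors. Vehicle tumors held 282 to 351 CPM (median 330) and TAK-243 tumors 309, 300, 317, 256 and 332 CPM. Uba1 RNA was thus higher in all Uba1 OE than in all EV tumors and overlapped between vehicle and TAK-243 tumors, where the drug acts on the protein. In B16-BL6 tumors, Uba1 was 409, 454 and 414 CPM with sgNC and 208, 220, 228 and 247 CPM with sgUba1, without overlap.

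The labels call Myc-CaP epithelial and its tissue prostate tumor. Of the markers of prostate cancer epithelium, Myc was at 117 to 902 CPM in cells and 346 to 1760 CPM in tumors, and Krt8 reached 2.20 to 17.7 CPM in cells and 23.4 to 286 CPM in tumors. Epcam, Krt18 and Cdh1 of the same list were low in cells. Epcam was at 0.0797 CPM at most and at 0 in 10 of 16 libraries, Krt18 at 0.0722 to 2.14 CPM and Cdh1 at 0.0717 to 1.77 CPM. Keratins outside this list were present in cells, with Krt15 at 160 to 1190 CPM. Krt19 had means of 555 CPM in sgNC, 144 in untreated parental and 6.87 in sgUba1 cells. B16-BL6 tumors showed a sum of 12480 to 16310 CPM over 7 melanocyte markers.

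On GRCm38, Arhgap44 (ENSMUSG00000033389.16) spans chr11:65002039-65162961 on the minus strand and Vwa3a (ENSMUSG00000030889.14) spans chr7:120739318-120805742 on the plus strand. Fbxl13 (ENSMUSG00000048520.16) spans chr5:21483847-21645634 and Nxn (ENSMUSG00000020844.6) spans chr11:76257198-76399140, both on the minus strand. The promoters are shown because the genes were picked by level alone, and the sequence around the start is a property that the choice did not use. Each run holds 250 bases before to 50 after the RefSeq start (GRCm38.p6), on the strand of the gene, with every CG in capitals, at chr11:65162912-65163211 for Arhgap44, chr7:120739307-120739606 for Vwa3a, chr5:21645556-21645855 for Fbxl13 and chr11:76399092-76399391 for Nxn.
Arhgap44: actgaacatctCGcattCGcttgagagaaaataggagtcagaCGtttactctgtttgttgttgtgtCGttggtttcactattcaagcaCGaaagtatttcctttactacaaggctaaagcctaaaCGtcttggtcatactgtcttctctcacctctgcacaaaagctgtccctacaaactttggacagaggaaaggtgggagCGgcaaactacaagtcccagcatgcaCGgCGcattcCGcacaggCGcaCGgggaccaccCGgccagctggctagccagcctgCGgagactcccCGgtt
Vwa3a: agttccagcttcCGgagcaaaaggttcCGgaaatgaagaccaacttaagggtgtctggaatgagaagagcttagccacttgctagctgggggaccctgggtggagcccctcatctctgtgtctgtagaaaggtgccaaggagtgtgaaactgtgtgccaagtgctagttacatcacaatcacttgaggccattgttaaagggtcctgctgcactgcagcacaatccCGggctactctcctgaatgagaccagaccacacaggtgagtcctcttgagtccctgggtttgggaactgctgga
Fbxl13: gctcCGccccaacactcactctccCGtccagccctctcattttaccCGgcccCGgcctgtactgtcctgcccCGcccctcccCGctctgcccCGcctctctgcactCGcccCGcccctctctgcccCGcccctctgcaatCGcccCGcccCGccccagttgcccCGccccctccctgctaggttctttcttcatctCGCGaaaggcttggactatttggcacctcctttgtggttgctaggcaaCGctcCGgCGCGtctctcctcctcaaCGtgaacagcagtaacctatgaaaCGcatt
Nxn: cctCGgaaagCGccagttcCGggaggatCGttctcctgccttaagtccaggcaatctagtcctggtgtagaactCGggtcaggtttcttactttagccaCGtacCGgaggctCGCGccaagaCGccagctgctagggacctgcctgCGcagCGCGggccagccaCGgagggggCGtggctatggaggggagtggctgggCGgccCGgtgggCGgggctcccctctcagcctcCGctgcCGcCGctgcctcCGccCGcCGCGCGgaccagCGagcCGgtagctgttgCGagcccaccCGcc
All 4 genes had an entry among 32851 promoters of 300 bases, whose median was 7 CG and 52.7% G or C. Nxn held 30 CG, a number reached by 11.7% of all promoters, Fbxl13 held 22 (reached by 23.1%) and Arhgap44 held 15 (reached by 34.6%). Vwa3a held 3 CG, which 76.7% of promoters reach or exceed. The promoters thus did not share a CG content, and methylation was not measured here.

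Arhgap44 was at or near 0 in the sgNC libraries and present in all other Myc-CaP groups. In cells, the sgNC libraries had 0 counts of Arhgap44 in all 4, with PBS and with IFN-γ. Arhgap44 was 2.77 and 2.35 CPM in sgUba1 cells with PBS and 1.95 and 2.58 with IFN-γ. Parental cells held 1.85 and 1.79 CPM untreated, 2.90 and 2.69 with TAK-243, 2.87 and 2.82 with IFN-γ, and 2.73 and 2.42 with both. The sgUba1 cells thus lay within the range of the parental cells, and the sgNC cells alone were at 0. In tumors, Arhgap44 was 0, 0.175 and 0 CPM in sgNC replicates 1 to 3, from 0, 2 and 0 counts. Replicates 1 to 7 of the sgUba1-labelled group had 3.06, 5.07, 1.69, 7.79, 7.51, 7.65 and 6.65 CPM, a mean of 5.63 ± 2.44 (SD, n = 7). EV tumors had 1.25, 2.08 and 0.806 CPM and Uba1 OE tumors 0.771, 0.665, 1.71 and 2.32 CPM. Every EV and Uba1 OE tumor lay above every sgNC tumor, although neither group carries an sgRNA. Vehicle tumors ran from 1.53 to 4.34 CPM (median 2.87) and TAK-243 tumors had 2.94, 1.99, 2.03, 3.43 and 3.37 CPM, again all above sgNC. In bulk tumor RNA, fewer cells that express a gene and less RNA per cell cannot be told apart.

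Against sgNC tumors, Arhgap44 was 106-fold higher in the tumors labelled sgUba1 (530 against 2 counts, interval 29.2 to 879), 25.6-fold higher in EV tumors (39 against 2 counts, interval 6.63 to 219) and 52.0-fold higher in vehicle tumors (545 against 2 counts, interval 14.3 to 430). In cells, Arhgap44 was at least 21.9-fold higher in sgUba1 than in sgNC libraries and at least 15.3-fold higher in untreated parental than in sgNC PBS cells. Mean Arhgap44 in the tumors labelled sgUba1 was 4.08-fold that of EV tumors, and it was 5.63 CPM beside 2.81 CPM in vehicle tumors, with overlap in both cases, 6 of 7 lying above every EV and 5 of 7 above every vehicle tumor. In culture, sgUba1 PBS cells were 1.41-fold above untreated parental cells without overlap. By mean CPM, Arhgap44 was ordered from 5.63 in the tumors labelled sgUba1 through 2.84 in IFN-γ-treated parental cells, 2.81 in vehicle tumors, 2.79 in TAK-243 cells, 2.75 in TAK-243 tumors, 2.58 in cells with both agents, 2.56 and 2.26 in sgUba1 cells with PBS and IFN-γ, 1.82 in untreated parental cells, 1.38 in EV and 1.37 in Uba1 OE tumors to 0.0584 in sgNC tumors and 0 in sgNC cells. Only 2 steps of that order separated neighbours whose libraries did not overlap, from sgUba1 IFN-γ cells to untreated parental cells and from Uba1 OE to sgNC tumors.

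Vwa3a showed the opposite picture, high in the sgNC libraries and low in the other Myc-CaP groups. In cells, Vwa3a was 15.2 and 17.5 CPM in sgNC with PBS and 15.2 and 13.1 CPM in sgNC with IFN-γ. It was 0.418 and 0.547 CPM in sgUba1 cells with PBS and 0.471 and 0.290 with IFN-γ. Parental cells held 1.33 and 1.08 CPM of Vwa3a untreated, 0.827 and 1.26 with TAK-243, 1.04 and 0.867 with IFN-γ, and 0.802 and 0.784 with both. The sgNC cells lay above all 12 other cell libraries, and the sgUba1 cells lay below all 8 parental ones. In tumors, Vwa3a was 24.2, 28.4 and 23.8 CPM in sgNC replicates 1 to 3, a mean of 25.5 ± 2.53 (SD, n = 3). The 7 tumors labelled sgUba1 ran from 0.399 to 0.901 CPM (median 0.671). EV tumors had 0.835, 0.656 and 0.504 CPM and Uba1 OE tumors 1.06, 0.665, 1.56 and 0.527 CPM. The tumors labelled sgUba1 overlapped EV and Uba1 OE tumors, and the sgNC tumors stood clear of all of them. Vehicle tumors ran from 0.308 to 1.02 CPM (median 0.821) and TAK-243 tumors had 1.11, 0.572, 1.02, 0.882 and 0.421 CPM, and both groups overlapped the EV and Uba1 OE tumors.

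Mean Vwa3a in sgNC libraries was 37.8-fold that of the tumors labelled sgUba1, 38.3-fold that of EV tumors and 35.7-fold that of vehicle tumors, with no overlap in any of the 3 comparisons. In cells it was 35.3-fold that of sgUba1 libraries, and sgNC PBS cells were 13.6-fold above untreated parental cells. The tumors labelled sgUba1 had 1.01 times the mean of EV and 0.944 times the mean of vehicle tumors, with overlap, while sgUba1 PBS cells had 0.402 times the mean of untreated parental cells without overlap. Vwa3a was high in sgNC libraries from culture and from mice, with tumors 1.56-fold above PBS cells, and whether these tumors and cells share a clone is not stated. By mean CPM the order was 25.5 in sgNC tumors, 16.3 and 14.1 in sgNC cells with PBS and IFN-γ, then untreated parental cells, 1.04 in TAK-243 cells, 0.952 in Uba1 OE tumors, 0.951 in IFN-γ-treated parental cells, 0.800 in TAK-243 tumors, 0.793 in cells with both agents, 0.714 in vehicle tumors, 0.674 in the tumors labelled sgUba1, 0.665 in EV tumors, and 0.483 and 0.380 in sgUba1 cells with PBS and IFN-γ. Neighbours in this order separated without overlap from sgNC tumors to sgNC PBS cells and from sgNC IFN-γ cells to untreated parental cells, and every later pair of neighbours overlapped.

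**Figure D1:**
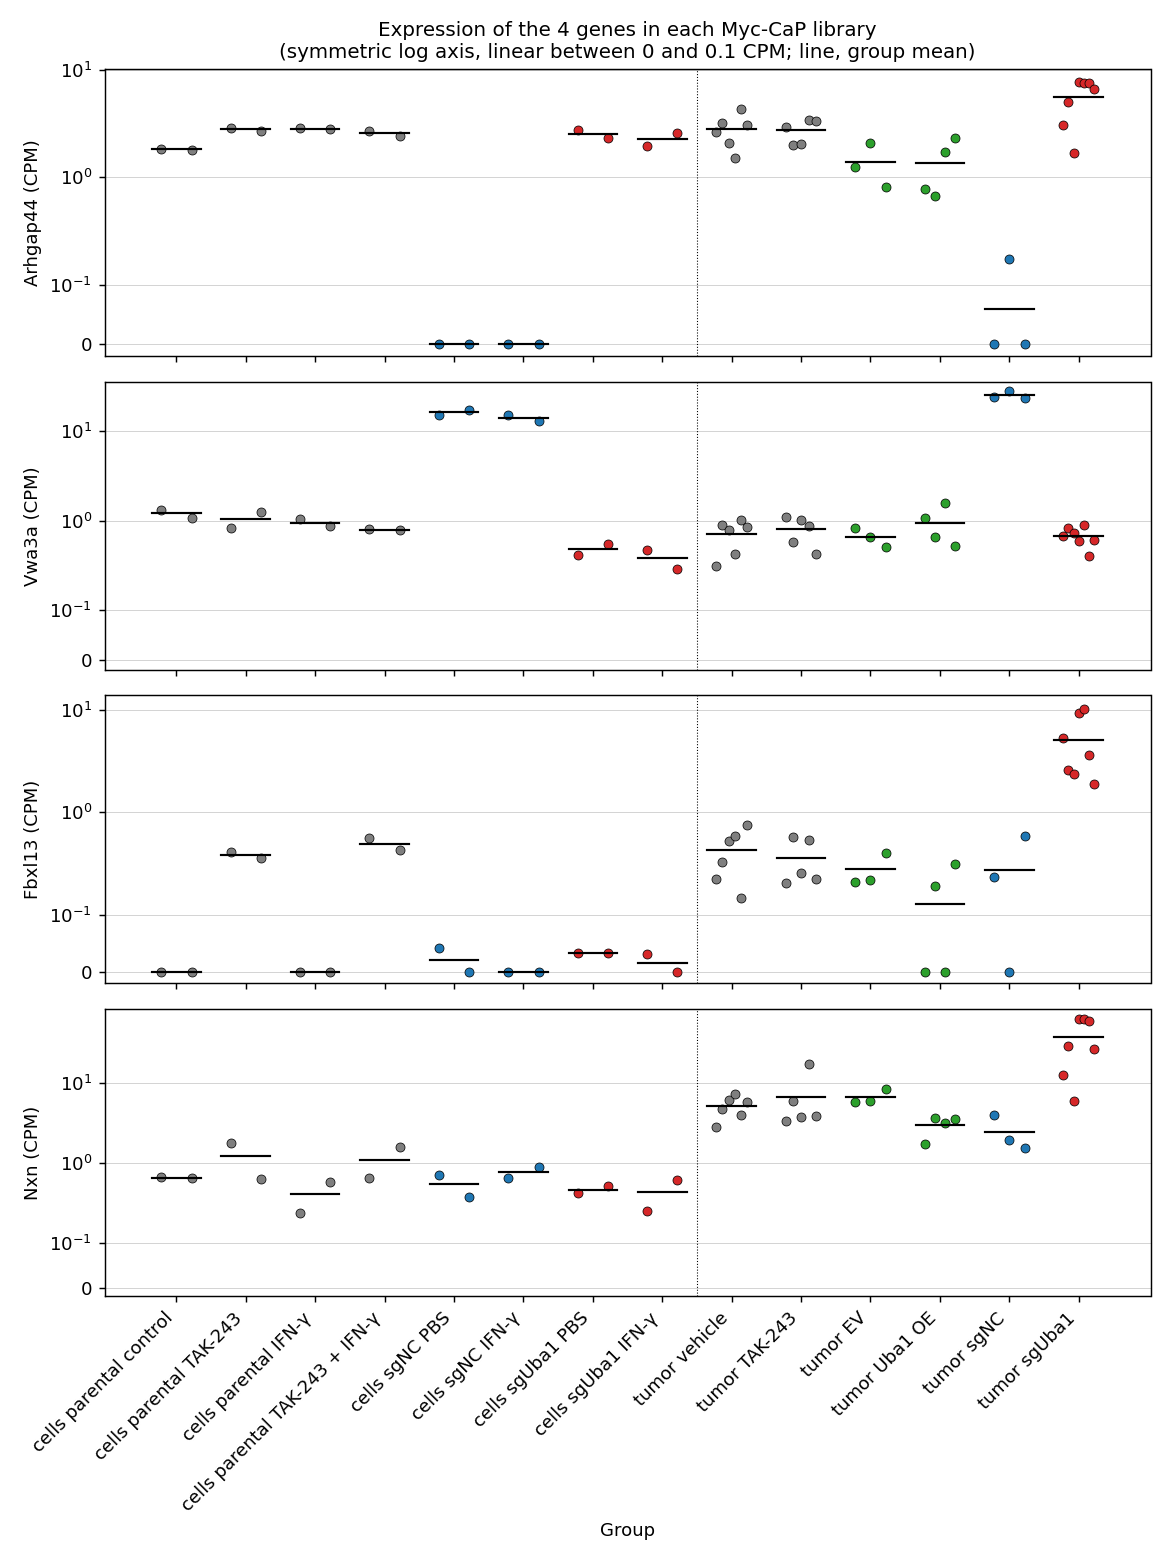
CPM of the 4 genes (symmetric log axis) in each Myc-CaP library, by group along the x axis, with cells on the left, tumors on the right and a line at each group mean. Arhgap44 reaches at most 0.175 CPM in sgNC libraries, Vwa3a reaches at least 13.1 CPM only there, and Fbxl13 and Nxn are highest in tumors labelled sgUba1, at 1.90 to 10.3 and 5.89 to 64.0 CPM.

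Fbxl13 departed on the other side, and only in tumors. From replicate 1 to 7, the tumors labelled sgUba1 had 5.37, 2.61, 2.36, 9.25, 10.3, 3.66 and 1.90 CPM, from 22 to 137 counts each. In sgNC tumors, Fbxl13 was 0.236, 0 and 0.592 CPM, from 3, 0 and 8 counts. EV tumors had 0.209, 0.219 and 0.403 CPM and Uba1 OE tumors 0, 0.190, 0 and 0.316 CPM. All 7 tumors labelled sgUba1 were above all 10 of these tumors, and sgNC, EV and Uba1 OE tumors overlapped one another. Vehicle tumors ran from 0.146 to 0.752 CPM (median 0.428) and TAK-243 tumors had 0.206, 0.572, 0.254, 0.535 and 0.224 CPM, below the tumors labelled sgUba1 as well. In cells, Fbxl13 was 0 in untreated and in IFN-γ-treated parental libraries, 0.0422 and 0 CPM in sgNC PBS and 0 in both sgNC IFN-γ libraries. It was 0.0322 CPM in both sgUba1 PBS libraries and 0.0314 and 0 CPM in sgUba1 IFN-γ libraries, which is 1 count at most. Parental cells with TAK-243 had 0.414 and 0.359 CPM and those with both agents had 0.562 and 0.428 CPM. In culture, therefore, sgUba1 and sgNC cells were alike in having next to no Fbxl13 at this depth, and the TAK-243-treated cells were the ones with more.

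The mean of Fbxl13 in the tumors labelled sgUba1, 5.06 CPM, was 18.3-fold that of sgNC (479 against 11 counts, interval 9.66 to 35.2), 18.3-fold that of EV (479 against 8 counts, interval 9.19 to 42.5) and 11.8-fold that of vehicle tumors. The fitted log2 fold change against sgNC ran from 3.57 without sgNC replicate 2 to 5.23 without sgNC replicate 3. The sgNC tumors had 0.997 times the mean of EV tumors (11 against 8 counts, interval 0.384 to 3.0), with overlap. From sgUba1 PBS cells to the tumors labelled sgUba1 the ratio was 158 (479 against 2 counts, interval 43.6 to 1310). TAK-243 cells were at least 1.77-fold above untreated cells, and cells with both agents were at least 2.17-fold above those with IFN-γ alone. In the order of mean CPM, 5.06 in the tumors labelled sgUba1 was followed by 0.495 in parental cells with both agents, 0.427 in vehicle tumors, 0.386 in TAK-243 cells, 0.358 in TAK-243 tumors, 0.277 in EV, 0.276 in sgNC and 0.127 in Uba1 OE tumors, and by at most 0.0322 in the remaining cell groups. The first step was the only one in which the libraries of neighbours did not overlap.

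Nxn behaved like Fbxl13 in tumors, with a wider spread and with a low sgNC group in addition. The tumors labelled sgUba1 had 12.5, 28.7, 5.89, 63.9, 64.0, 59.9 and 26.4 CPM in replicates 1 to 7, a mean of 37.3 ± 24.9 (SD, n = 7). In sgNC tumors, Nxn was 3.93, 1.93 and 1.55 CPM. EV tumors had 5.84, 5.90 and 8.47 CPM and Uba1 OE tumors 1.73, 3.61, 3.19 and 3.58 CPM. All 7 tumors labelled sgUba1 exceeded all sgNC and Uba1 OE tumors, 6 of 7 exceeded every EV tumor, and all 3 sgNC tumors lay below every EV tumor. Vehicle tumors ran from 2.86 to 7.28 CPM (median 5.26) and TAK-243 tumors had 3.35, 5.89, 3.75, 17.1 and 3.84 CPM. Of the tumors labelled sgUba1, replicate 3 alone fell inside the vehicle range, and TAK-243 replicate 4 was the highest Myc-CaP tumor outside the sgUba1 group. In cells, Nxn was 0.665 and 0.645 CPM in untreated parental libraries, 0.718 and 0.373 in sgNC with PBS, and 0.418 and 0.515 in sgUba1 with PBS. With IFN-γ it was 0.239 and 0.578 CPM in parental, 0.658 and 0.884 in sgNC and 0.251 and 0.612 in sgUba1 cells. TAK-243 cells had 1.79 and 0.628 CPM and cells with both agents 0.642 and 1.57 CPM. All cell libraries held less than 2 CPM, and sgUba1 and sgNC cells overlapped.

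Mean Nxn in the tumors labelled sgUba1 was 15.1-fold that of sgNC, 5.54-fold that of EV and 7.26-fold that of vehicle tumors. The choice of control changed the figure because EV tumors were 2.73-fold above sgNC tumors, without overlap. In cells, sgUba1 libraries had 0.682 times the mean of sgNC libraries. Nxn was higher in tumors than in cells in every comparison made, 80.0-fold between libraries labelled sgUba1, 4.53-fold between sgNC libraries, 10.3-fold from parental cells to EV and 7.85-fold from parental cells to vehicle tumors. The sgUba1 and sgNC tumors need not come from the clones of the cell libraries, and the 80.0-fold pools both sets of sgUba1 tumors. The order by mean CPM was 37.3 in the tumors labelled sgUba1, 6.78 in TAK-243, 6.74 in EV, 5.14 in vehicle, 3.03 in Uba1 OE and 2.47 in sgNC tumors, then 1.21 in TAK-243 cells, 1.10 in cells with both agents, 0.771 in sgNC IFN-γ, 0.655 in untreated parental, 0.545 in sgNC PBS, 0.467 in sgUba1 PBS, 0.431 in sgUba1 IFN-γ and 0.408 in IFN-γ-treated parental cells. All neighbours in this order overlapped.

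**Figure D2:**
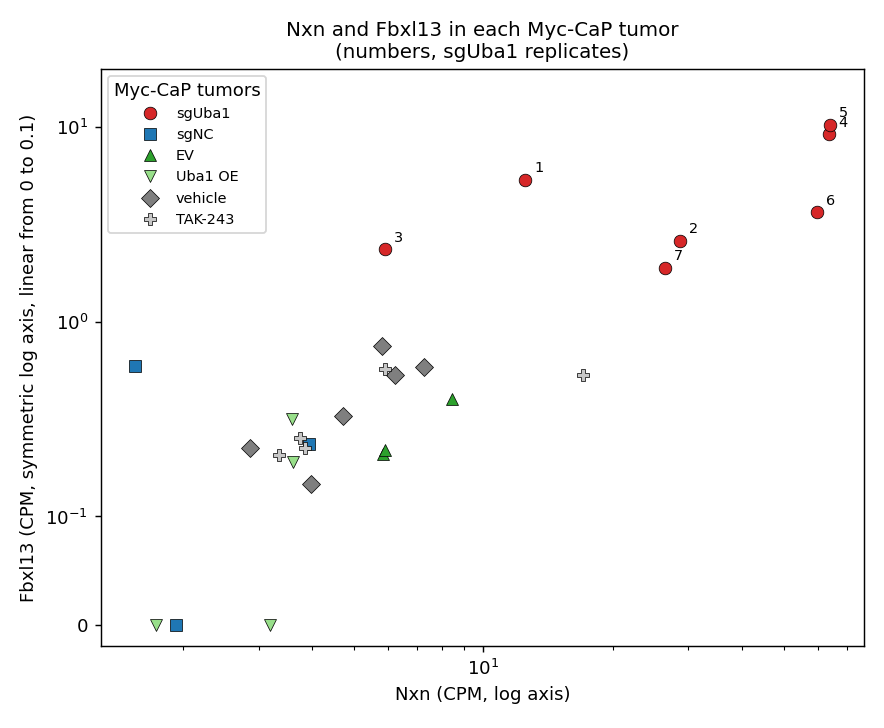
Fbxl13 (y axis) against Nxn (x axis) in each Myc-CaP tumor, in CPM, with a symbol per group and replicate numbers for sgUba1. The tumors labelled sgUba1 lie apart in Fbxl13, at 1.90 to 10.3 CPM, and overlap other groups in Nxn, at 5.89 to 64.0 CPM.

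Within the tumors labelled sgUba1, the Uba1 and Nxn values of replicates 1 to 7 were, in order, 182 and 12.5, 189 and 28.7, 194 and 5.89, 341 and 63.9, 328 and 64.0, 341 and 59.9, and 353 and 26.4 CPM. For Fbxl13 beside the same Uba1 values the series was 5.37, 2.61, 2.36, 9.25, 10.3, 3.66 and 1.90 CPM. The most Nxn (64.0 CPM) and the most Fbxl13 (10.3 CPM) were in the tumor with 328 CPM of Uba1. The tumor with the most Uba1, 353 CPM, had the least Fbxl13, 1.90 CPM. Every one of the 7 exceeded the sgNC tumors in both genes. These tumors form the sets described above, and a relation of Uba1 RNA to either gene was not tested. Uba1 OE tumors, with 615 to 735 CPM of Uba1, had the lowest Fbxl13 mean of the Myc-CaP tumor groups. That mean rests on 0 to 3 counts per library, and these tumors overlapped EV and sgNC tumors. Their Nxn was 1.73 to 3.61 CPM, a mean of 3.03 CPM beside 2.47 CPM in sgNC tumors.

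Put side by side, the working name of these genes, switched between sgRNA lines, goes against the cell data for Fbxl13 and Nxn. For Arhgap44 and Vwa3a it restates the differences that chose them. The difference of mean log2 CPM, sgUba1 minus sgNC, was 5.23 in tumors and 4.68 in cells for Arhgap44. For Vwa3a it was -5.08 in tumors and -4.87 in cells. With 0 counts in sgNC cells, the 4.68 of Arhgap44 depends on the prior count of 2, and the fold was at least 21.9. Fbxl13 had 3.93 in tumors and 0.18 in cells, the latter from at most 1 count per library, and Nxn had 3.57 in tumors and -0.47 in cells. For comparison, Uba1 had -0.16 in tumors and -0.97 in cells. These differences chose the genes and are given without a test. As background to them, 3.04% of 16202 genes passed an adjusted p of 0.05 between tumors labelled sgUba1 and sgNC tumors, 29.7% of 15530 passed between sgUba1 and sgNC cells with PBS and 39.4% of 15530 with IFN-γ. Nothing is read from these shares, since the same contrasts chose the genes.

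**Figure D3:**
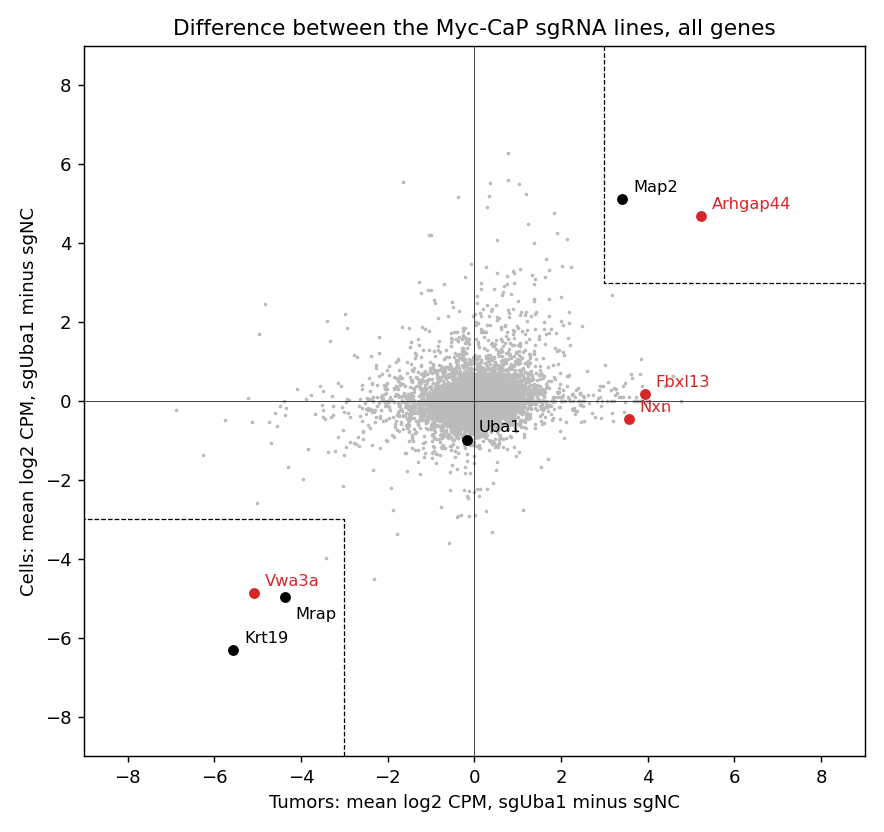
Difference of mean log2 CPM between sgUba1 and sgNC libraries in tumors (x axis) and in cells (y axis) for 14281 genes, with the 4 genes and Uba1 marked. Arhgap44 (5.23 and 4.68) and Vwa3a (-5.08 and -4.87) lie far out in both settings, while Fbxl13 (3.93 and 0.18) and Nxn (3.57 and -0.47) lie far out in tumors only. The value of Arhgap44 in cells depends on the prior count of 2.

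Between genes, levels can be set side by side only in TPM, which corrects for transcript length. In the tumors labelled sgUba1, the median was 19.3 TPM for Nxn, 2.93 for Arhgap44, 2.45 for Fbxl13 and 0.291 for Vwa3a. In sgNC tumors the median was 19.3 TPM for Vwa3a, 1.35 for Nxn, 0.162 for Fbxl13 and 0 for Arhgap44. Nxn was thus the most abundant of the 4 in the first group and Vwa3a in the second. In sgNC PBS cells, Vwa3a had a median of 9.88 TPM, against 0.392 TPM in untreated parental cells. These lie further apart than the medians in CPM of the same cells, 16.3 and 1.2, so the size of the fold depends on the measure. Levels of single transcripts were not examined. No gene of the 4 exceeded 1 TPM in untreated parental cells, where Arhgap44 had 0.617 TPM, Nxn 0.323 TPM and Fbxl13 0.

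Across the 14 Myc-CaP groups, mean log2 CPM of Arhgap44 and Vwa3a had a Pearson r of -0.947 and that of Fbxl13 and Nxn a Pearson r of 0.840 (n = 14 group means). The other pairs had r of 0.429 (Arhgap44 and Fbxl13), 0.267 (Arhgap44 and Nxn), -0.275 (Vwa3a and Fbxl13) and -0.194 (Vwa3a and Nxn). The points share lines, libraries and, for tumors, host tissue, so these values describe the pattern and carry no p. In the first pair, the 3 sgNC groups hold the highest Vwa3a and the lowest Arhgap44 means, and in the second the tumors labelled sgUba1 hold the highest of both genes. These are the groups that chose the genes, so the large values of r are not independent of the choice. The r without these groups was not computed.

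Cell type markers also differed between some of the tumor groups. The sum of 14 leukocyte markers, with Lyz2 the most abundant, was 411.9, 375.2, 587.1, 424.6, 408.9, 415.6 and 572.8 CPM in replicates 1 to 7 of the tumors labelled sgUba1. It was 211.4, 349.9 and 224.2 CPM in sgNC tumors and 308.7, 319.0 and 379.0 CPM in EV tumors. All 7 tumors labelled sgUba1 were above the sgNC tumors and 6 of 7 above the EV tumors. At most 2 of the 14 markers were at 0 in any of these tumors. In cells the sum was 3.106 to 12.28 CPM, and the macrophage markers C1qb and Adgre1 were at 0 in all 16 libraries. Vehicle tumors had 166.3 to 242.7 CPM and Uba1 OE tumors 109.9 to 392.8 CPM. TAK-243 tumors had 171.6 to 366.1 CPM. The part of leukocytes in the levels of Nxn and Fbxl13 was not tested. Fibroblast markers (10 genes) summed to 1082 to 3091 CPM in the tumors labelled sgUba1, 870.5 to 1450 in sgNC and 1065 to 1781 in EV tumors, and endothelial markers (8 genes) to 109.2 to 249.1, 139.3 to 163.1 and 142.7 to 154.2 CPM, with overlap throughout. Skeletal muscle markers (8 genes) summed to 16.51 to 216.5 CPM in the tumors labelled sgUba1 and 7.451 to 24.22 CPM in sgNC tumors, and reached 1402 CPM in a Uba1 OE tumor.

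Keratin 15, the most abundant of 6 skin keratinocyte markers, moved the other way. The summed list was 11.26, 27.87, 71.93, 13.51, 25.3, 3.391 and 1.469 CPM in replicates 1 to 7 of the tumors labelled sgUba1. It was 172.3, 1131 and 465.5 CPM in sgNC tumors, 39.13, 143.5 and 57.75 CPM in EV tumors and 174.1 to 888.4 CPM in vehicle tumors. The tumors labelled sgUba1 lay below all sgNC and vehicle tumors. Myc-CaP cells express Krt15 themselves, at 160 to 1190 CPM, whereas the skin markers Krt5 and Lor were at 0 in all 10 sgNC and sgUba1 tumors. Krt10 ran the other way, at 0.0735 to 0.332 CPM in the 7 tumors labelled sgUba1 and 0 in the 3 sgNC tumors. Krt14 was at 0 in 6 of the 7 and in 1 of the 3, with at most 0.224 and 0.526 CPM, and Krt1 was at 0 in 6 of the 7 and in 2 of the 3, with at most 0.0746 and 0.157 CPM. The part of this shift in the levels of the 4 genes was not tested.

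A search over all genes shows how common a switch of this size between the lines is. It asked for sgUba1 and sgNC libraries that do not overlap in tumors nor in cells, with a difference of mean log2 CPM of at least 3 (8-fold) in the same direction in both. Only 5 of 40077 genes met it, Arhgap44 and Map2 higher with sgUba1 and Krt19, Vwa3a and Mrap lower. Of the 40077 genes, 10831 were at 0 in all Myc-CaP libraries. The smaller of the tumor and cell differences was 5.56 for Krt19, 4.87 for Vwa3a, 4.68 for Arhgap44, 4.38 for Mrap and 3.41 for Map2 on the log2 scale. The value for Arhgap44, and so its place in this order, depends on the prior count of 2, because its sgNC cell libraries had 0 counts. Just outside lay 3425401B19Rik at 2.33, Fat2 at 2.15, Aldh5a1 at 1.99 and Krt76 at 1.97. With tumors alone 47 of the 40077 genes met the threshold, including Fbxl13 and Nxn, and with cells alone 50 did, without them. Leaving out sgUba1 tumor replicate 1 gave 6 genes and leaving out sgNC tumor replicate 2 gave 4.

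For 3 of the 5 genes, Arhgap44, Vwa3a and Mrap (60.0%), untreated parental cells, EV tumors and vehicle tumors were all nearer to the sgUba1 than to the sgNC mean, and for none of the 5 were all 3 nearer to sgNC. EV tumors were nearer to sgUba1 for 5 genes, parental cells for 4 and vehicle tumors for 3. Arhgap44 and Vwa3a were chosen for their difference, and of the other 3 genes only Mrap had all references on the sgUba1 side. The share of all genes with the references on that side was not computed. In the wider sets the references were divided. Of the genes found with tumors alone, 13 higher and 34 lower with sgUba1, EV tumors were nearer to sgUba1 for 7 and 23, parental cells for 7 and 16 and vehicle tumors for 3 and 5. Of those found with cells alone, 41 higher and 9 lower, EV tumors were nearer to sgUba1 for 22 and 5, parental cells for 10 and 3 and vehicle tumors for 10 and 4. Mrap, which encodes an accessory protein of the melanocortin 2 receptor, had a mean of 3.66 CPM in sgNC cells against 0.0322 in sgUba1 and 0.0359 in untreated parental cells, and 5.57 CPM in sgNC tumors against 0.176 in tumors labelled sgUba1, 0.0712 in EV and 0.117 in vehicle tumors. The remaining genes lay in between. Krt19, a keratin, had means of 555 CPM in sgNC, 6.87 in sgUba1 and 144 in untreated parental cells, and 467 in sgNC, 13.1 in sgUba1-labelled, 28.8 in EV and 149 in vehicle tumors. Map2, which encodes a microtubule-associated protein, had 0.0855, 6.09 and 1.42 CPM in the same cell groups and 1.10, 10.2, 3.91 and 2.62 CPM in the same tumor groups.

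**Figure D4:**
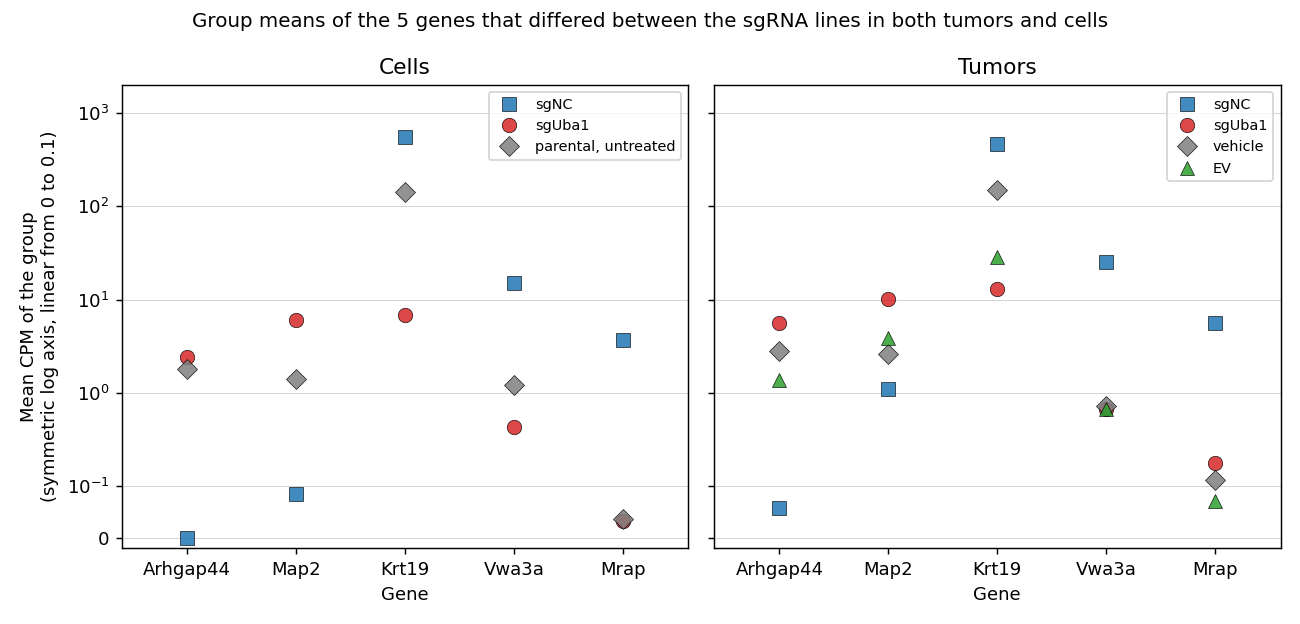
Mean CPM per group (symmetric log axis) of the 5 genes that differ 8-fold or more between sgUba1 and sgNC in both cells (left) and tumors (right), beside the parental, vehicle and EV means. For Arhgap44, Vwa3a and Mrap the 3 reference groups lie nearer to sgUba1 than to sgNC.

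Tests that did not enter the choice of the genes ask whether a change in UBA1 itself moves them. In mice, TAK-243 against vehicle asks this with the enzyme inhibited in tumors whose labels name no vector and no guide. The edgeR test called 0 of 4 genes, where 0.145% of 17299 genes passed, with 0 of the 4 under an unadjusted p of 0.05 and 0 called by DESeq2. The log2 fold change was -0.01 (SE 0.258, adjusted p 0.992) for Arhgap44, 0.19 (SE 0.338, adjusted p 0.817) for Vwa3a, -0.26 (SE 0.426, adjusted p 0.804) for Fbxl13 and 0.42 (SE 0.412, adjusted p 0.659) for Nxn. The value for Nxn rests on TAK-243 replicate 4, at 17.1 CPM, without which it was -0.27. These tests do not show that the levels were equal. Overexpression asks the reverse, and Uba1 itself was higher in Uba1 OE tumors by 1.27 (SE 0.0886, adjusted p 0.00503, 4 of 4 above every EV tumor). Here edgeR called 0 of the 2 genes with enough counts, beside 0.0269% of 14853 genes, while 1 of them, Nxn, had an unadjusted p under 0.05, as had 2698 of all 14853 genes, and was called by DESeq2, as were 723 genes. Nxn was lower in all 4 Uba1 OE than in all 3 EV tumors, with a log2 fold change of -1.17 (SE 0.277, p 0.00255, adjusted p 0.128). Its adjusted p was 0.0136 by DESeq2 and 0.0473 without Uba1 OE replicate 1, in a range of 0.0136 to 0.427 over 11 alternatives. Arhgap44 had -0.02 (SE 0.512, adjusted p 0.984), and Vwa3a and Fbxl13 were too low to be tested, with Fbxl13 at an EV to Uba1 OE ratio of 2.41 (8 against 5 counts, interval 0.696 to 9.38).

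In cultured parental cells, TAK-243 changed most genes, and 66.3% of 14551 passed against untreated cells. Among the members edgeR called 0 of 3 tested, with 1 under an unadjusted p of 0.05 (9957 of all 14551 genes) and 0 called by DESeq2. Arhgap44 had a log2 fold change of 0.66 (SE 0.298, p 0.0348, adjusted p 0.0523), higher in 2 of 2 libraries, with an adjusted p of 0.0489 under RLE scaling and a range of 0.0489 to 0.231 over 12 alternatives. Nxn had 0.97 (SE 0.57, adjusted p 0.134), which became 1.43 with an adjusted p of 0.0477 without TAK-243 replicate 2 and -0.07 without TAK-243 replicate 1, in a range of 0.0477 to 0.949. Vwa3a had -0.19 (SE 0.458, adjusted p 0.733). With IFN-γ in both arms 68.2% of 14551 genes passed, edgeR again called 0 of 3 members, 1 had an unadjusted p under 0.05 (10235 of all genes) and DESeq2 called 0. That gene was Nxn, at 1.41 (SE 0.635, p 0.0350, adjusted p 0.0513) and higher in 2 of 2 libraries. Of 12 alternatives, 5 gave Nxn an adjusted p under 0.05, and they ranged from 0.0224 to 0.580. These 5 were RLE scaling (0.0480), no filter (0.0357), and leaving out TAK-243 replicate 2 (0.0489), IFN-γ replicate 2 (0.0499) or replicate 1 of the cells with both agents (0.0224). The log2 fold change of Nxn was 0.59 without replicate 2 of the cells with both agents, 0.93 without IFN-γ replicate 1 and 2.17 without IFN-γ replicate 2. Arhgap44 had -0.15 (SE 0.281) and Vwa3a -0.26 (SE 0.498) in this comparison. Fbxl13 was too low for either test, with the levels given above.

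IFN-γ was given to parental, sgNC and sgUba1 cells, and its own effect on the genes was tested in each. Against untreated parental cells, 29% of 14551 genes passed, edgeR called 0 of 3 members, 1 had an unadjusted p under 0.05 (5536 of all genes) and DESeq2 called 0. Arhgap44 had 0.67 (SE 0.296, p 0.0322, adjusted p 0.0938), Vwa3a -0.31 (SE 0.461) and Nxn -0.62 (SE 0.696). Within sgNC cells, 3.88% of 15530 genes passed, and edgeR called 0 of the 2 members with counts, Vwa3a at -0.17 (SE 0.117, adjusted p 0.418) and Nxn at 0.57 (SE 0.468). Arhgap44 had 0 counts on both sides. Within sgUba1 cells, 2.85% passed and edgeR called 0 of 3, Arhgap44 at -0.19 (SE 0.243), Vwa3a at -0.35 (SE 0.378) and Nxn at -0.13 (SE 0.502). The difference between these responses passed for 4.64% of genes and for 0 of 2 members, Vwa3a at -0.18 (SE 0.392) and Nxn at -0.70 (SE 0.687). In the last 3 comparisons 0 members had an unadjusted p under 0.05 and DESeq2 called 0.

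B16-BL6 tumors compare sgUba1 with sgNC in another line, and there Uba1 was lower with sgUba1 by a log2 fold change of -0.92 (adjusted p 0.000294). Here too the labels name no clone, so guide and clone cannot be told apart. Vwa3a was 0.496, 0.289 and 0.626 CPM in sgNC replicates 1, 2 and 4 and 0.629, 0.772, 0.799 and 0.781 CPM in sgUba1 tumors. All 4 sgUba1 tumors lay above all 3 sgNC tumors, the reverse of Myc-CaP, though only by 0.629 against 0.626 CPM at the nearest. Nxn was 17.6, 14.7 and 15.5 CPM with sgNC and 16.6, 15.5, 22.5 and 12.3 CPM with sgUba1. Arhgap44 was 0.0331, 0.0867 and 0.209 CPM with sgNC and 0.0699, 0.235, 0.0761 and 0.228 CPM with sgUba1, and Fbxl13 did not exceed 0.0671 CPM in any. Except for Vwa3a, sgNC and sgUba1 tumors overlapped. Beside 0.724% of 17539 genes, edgeR called 0 of the 2 members tested, with 0 under an unadjusted p of 0.05 and 0 by DESeq2. Vwa3a had a log2 fold change of 0.68 (SE 0.312, p 0.0556, adjusted p 0.315) and Nxn of 0.07 (SE 0.175, adjusted p 0.875).

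**Figure D5:**
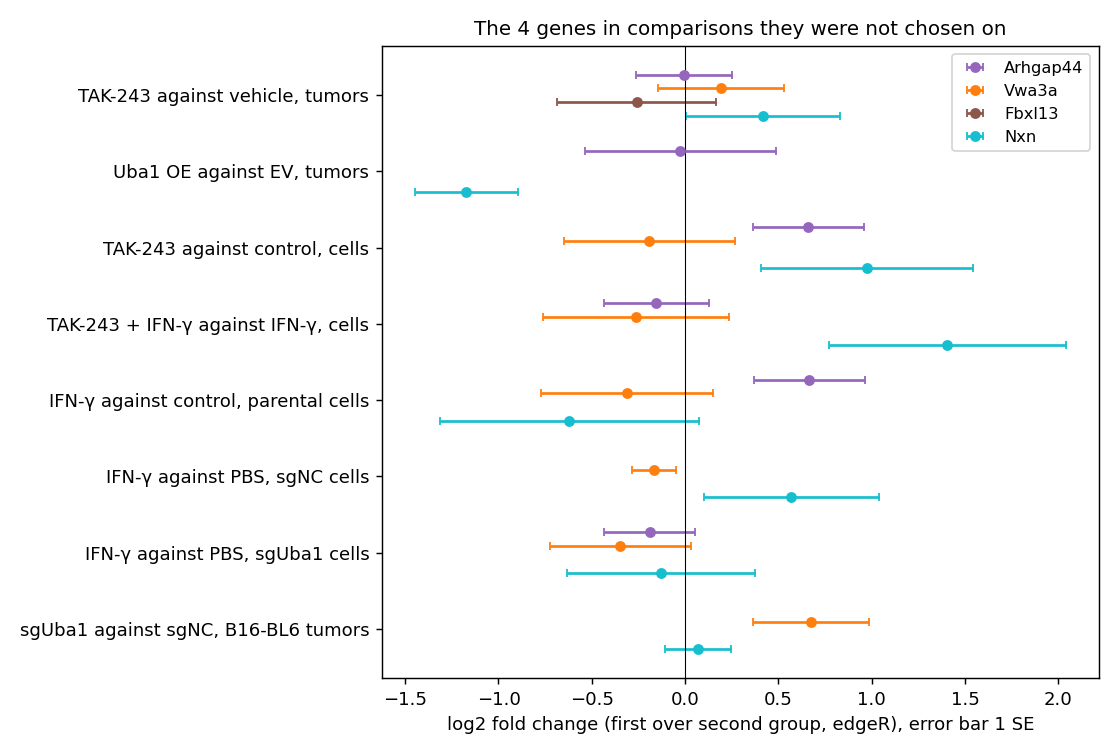
Log2 fold change (x axis, with 1 SE) of the genes that could be tested in each comparison (y axis) that did not choose them. For TAK-243 against vehicle in tumors the values are -0.01 for Arhgap44, 0.19 for Vwa3a, -0.26 for Fbxl13 and 0.42 for Nxn, and for Uba1 OE against EV the value for Nxn is -1.17.

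With TAK-243 in culture, the gene families around the 4 genes are read against all 14551 genes, of which 66.3% passed without IFN-γ (4701 higher and 4943 lower, median log2 fold change 0.03). In the family of Arhgap44, 12 Rac and Cdc42 GTPases and RhoGAPs with a BAR domain were tested, 9 rose and 2 fell (median 0.48), among them Cdc42 at 0.85 (adjusted p 3.02e-20) and Rac1 at -0.41 (adjusted p 2.38e-13). Of 4 genes with von Willebrand factor A domains, the family of Vwa3a, 1 rose and 2 fell (median -0.34), with Vwa5a at -1.34 (adjusted p 1.45e-10). Of 8 motile cilia genes tested, 3 rose and 1 fell (median 0.43), with the dynein heavy chain gene Dnah6 at 3.30 (adjusted p 4.93e-11). For Fbxl13, 5 other genes of the nexin-dynein regulatory complex were tested, 3 rose and 1 fell (median 0.51), with Gas8 at 0.70 (adjusted p 8.69e-09) and Ccdc65 at -2.13 (adjusted p 4.23e-12). Of 17 other F-box genes with leucine-rich repeats, 4 rose and 9 fell (median -0.16), with Fbxl20 at -2.07 (adjusted p 1.84e-12). The SCF core, into which F-box proteins dock, had 3 of 3 higher (median 0.25), with Skp1a at 1.04 (adjusted p 8.23e-22). For Nxn, 10 of 19 thioredoxin system genes rose and 8 fell (median 0.12), with Txnrd1 at 0.96 (adjusted p 1.24e-21) and Prdx4 at -0.62 (adjusted p 2.1e-10). Of 15 Wnt pathway genes, 5 rose and 4 fell (median -0.0023, and 0.0066 under RLE scaling), with the target gene Ccnd1 at -1.13 (adjusted p 2.81e-23).

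With IFN-γ in both arms 68.2% of all genes passed (4652 higher and 5266 lower), and the same lists had 9 higher and 2 lower (Rac and Cdc42), 1 and 3 (von Willebrand factor A), 4 and 1 (motile cilia), 2 and 1 (regulatory complex), 4 and 9 (F-box), 3 and 0 (SCF core), 7 and 8 (thioredoxin) and 6 and 4 (Wnt). Their medians were 0.44, -0.70, 1.45, 0.64, -0.16, 0.20, -0.02 and 0.23 in that order, beside 0.02 over all genes, and the thioredoxin median was 0.0077 under RLE scaling. In TAK-243 and in Uba1 OE tumors, where 0.145% and 0.0269% of all genes passed, edgeR called 0 genes of these 8 lists. In B16-BL6 tumors, Rfx3, a regulator of cilia genes, was lower with sgUba1 at -1.62 (SE 0.0616, adjusted p 2.63e-06) and Lgr5 at -1.33 (SE 0.198, adjusted p 0.0159), and the remaining genes of the lists did not pass.

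Neighbouring genes show how far along the chromosome a difference between the lines extends, as means and without a test. Inside Arhgap44 lies 1700086D15Rik, which had 0 counts in all 3 sgNC tumors and all 4 sgNC cell libraries. It had 36 counts over the tumors labelled sgUba1, 10 over sgUba1 cells, 7 over EV tumors, 42 over vehicle tumors and 4 over untreated parental cells. Elac2, which overlaps the 3′ end of Arhgap44, was well expressed in all lines, with means of 60.6 CPM in sgNC and 88.6 in sgUba1-labelled tumors and of 78.7 and 73.9 CPM in sgNC and sgUba1 cells. On the other side, Myocd, 13.6 kb away, had means of 54.4 and 57.7 CPM in sgNC and sgUba1 cells and of 28.1 and 15.5 CPM in sgNC and sgUba1-labelled tumors. Gm12295, 115 kb away, had 2.68 CPM in sgNC tumors and 0.274 in the tumors labelled sgUba1, and 1.31 and 0.959 CPM in sgNC and sgUba1 cells. The near absence of Arhgap44 from sgNC libraries was thus shared by the gene inside it and not by Elac2 or Myocd.

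Gm5737, 6.62 kb beyond Vwa3a, followed Vwa3a. It had 32 counts over sgNC tumors (0.708 to 1.14 CPM) and 17 over sgNC cells, against 0 over sgUba1 cells, 1 over the tumors labelled sgUba1, 1 over EV, 5 over vehicle tumors and 1 over untreated parental cells. Mosmo, 4.46 kb before Vwa3a, had means of 27.1 CPM in sgNC tumors and 37.4 in the tumors labelled sgUba1, and Eef2k, 37.1 kb beyond, had 45.5 and 46.5 CPM. Around Fbxl13, Armc10 at 0.179 kb had 38.7 and 46.8 CPM and Fam185a at 1.72 kb had 43.7 and 65.0 CPM in the same groups. Napepld, 17.3 kb from Fbxl13, had 19.5 and 58.2 CPM there and 39.9 CPM in EV tumors, and Lrrc17, which lies inside Fbxl13, had 0.499 and 1.48 CPM. Ccdc146, 59.2 kb before Fbxl13, had means of 0.0262 and 0.360 CPM, the nearest to the 18.3-fold of Fbxl13 but at a very low level. In cells, the means of sgNC and sgUba1 libraries were 41.7 and 58.5 CPM for Armc10, 33.4 and 58.9 for Fam185a and 8.24 and 11.8 for Napepld. Farther out, Pmpcb at 91.5 kb had 85.7 and 109 CPM in cells and 71.8 and 116 in tumors, and Gsap at 169 kb had 3.83 and 7.71 CPM in cells and 18.8 and 30.6 in tumors. These 5 neighbours of Fbxl13 were thus higher on the sgUba1 side in both settings, by far less than Fbxl13 in tumors. Near Nxn, Timm22 at 7.81 kb had means of 15.8 and 21.4 CPM in sgNC and sgUba1-labelled tumors. Mrm3 at 6.58 kb had 7.36 and 10.3 CPM there. In sgNC and sgUba1 cells the means were 27.5 and 27.4 CPM for Timm22 and 17.6 and 12.6 CPM for Mrm3. Mrm3 was thus higher on the sgUba1 side in tumors and lower in cells.

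The genes most like each of the 4 were ranked by Pearson r over the 14 Myc-CaP group means of log2 CPM among 4549 genes that vary between groups. For Arhgap44 they were Arfgef3 (0.93), Gm15128 (0.85), Map2 (0.83), Bmp8a (0.82) and P2ry2 (0.74). For Vwa3a they were Mrap (0.96), Krt19 (0.75), Cep126 (0.70), Gm47777 (0.65) and Gm9573 (0.65). For Fbxl13 they were Cacna1i (0.95), Sult2b1 (0.93), Efr3b (0.92), Myo15b (0.92) and Ppara (0.91). For Nxn they were Cym (0.98), Angptl7 (0.98), Gpsm1 (0.97), Myo5b (0.97) and Klk1 (0.97). Spearman rho, taken on ranks, was 0.4334 for Mrap, 0.8945 for Krt19, 0.2967 for Cep126, 0.1209 for Gm47777 and 0.5648 for Gm9573. It was 0.5545 to 0.7701 in the Arhgap44 list, 0.8066 to 0.9747 for Fbxl13 and 0.8746 to 0.9385 for Nxn. Unlike Arhgap44, P2ry2 had a higher mean in sgNC tumors than in tumors labelled sgUba1, but not in cells. The groups include those that chose the genes, so the ranking is not independent of the choice. The groups share libraries and lines, and the ranking carries no p. Arfgef3, the closest to Arhgap44, had means of 16.7 CPM in sgNC, 65.8 in sgUba1 and 42.4 in untreated parental cells, and 19.8, 88.2 and 47.7 CPM in sgNC, sgUba1-labelled and EV tumors, a smaller difference than that of Arhgap44. Klk1 had means of 25.5 CPM in the tumors labelled sgUba1, 0.578 in sgNC and 1.45 in EV tumors and 0 in sgNC and sgUba1 cells, the tumor-only pattern of Nxn and Fbxl13. Angptl7 had 123, 10.5 and 46.9 CPM in these tumors, with EV between sgUba1 and sgNC as for Nxn.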

How the data were processed

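The authors deposited expected counts and TPM per gene for 51 mouse RNA libraries, and their processing notes name kallisto and the mm10 build. The deposited expected counts were rounded to whole numbers for the tests, although the plan had assumed counts. The deposited TPM values were used to compare levels between genes, for Vwa3a also between lines, and as an alternative in the search over lines. The sample labels state poly-A selection and the study's methods state removal of ribosomal RNA, and which applies was not settled here.

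CPM and log2 CPM (prior count 2) used TMM factors from edgeR 4.0.16 in R 4.3.3, over the 44 Myc-CaP libraries together and over the 7 B16-BL6 libraries alone. Tests were edgeR quasi-likelihood tests (limma 3.58.1 underneath) after filterByExpr, 2-sided, with Benjamini-Hochberg adjustment over all genes tested and a threshold of 0.05. Cell groups were fitted with all 8 libraries of their experiment, tumor groups in pairs. Alternatives were DESeq2 1.42.0, RLE scaling, no filter on low counts, a replicate block, leaving out each library, and for the search over lines other thresholds, TPM with 0.1 added, tumors alone and cells alone. Floors were 3 counts per library, and counting intervals were exact conditional binomial intervals at 95%. No 2 of 75 pairs of replicates were identical.

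Python 3.11.15 with pandas 2.3.3, NumPy 2.4.6, SciPy 1.17.1 and matplotlib 3.10.9 made the summaries and plots. Of 40077 gene identifiers, 39142 matched GENCODE M21. Genes named are the 4 genes, Uba1, the 5 annotated genes on each side of each and those overlapping it, the 5 genes most like each over group means that span at least 2 and reach at least 1 on the log2 CPM scale, the genes from the search over lines with those just outside it, genes past a test from 8 lists (motile cilia, nexin-dynein regulatory complex, F-box with leucine-rich repeats, SCF core, Rac and Cdc42, von Willebrand factor A, thioredoxin, Wnt), and markers of leukocytes, fibroblasts, endothelium, skeletal muscle, skin keratinocytes, prostate cancer epithelium and melanocytes. The genes and lists were chosen with earlier results of these data known. Some markers of prostate cancer epithelium are not reported here.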

Additional observations from a re-analysis of the deposited data

Results flagged for a closer look

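Among 20 sets of values, each 1 gene in 1 tumor group of 4 or more, checked for a library far from the rest, 2 held one, and chance alone marks about 1 in 20. In B16-BL6 tumors with sgUba1, the lowest Vwa3a value was 0.629 CPM in replicate 1, against 0.772 CPM in the next (a gap of 0.841 of the group's range, above the 95% limit of Dixon's test, n = 4). In TAK-243 tumors of Myc-CaP, the highest Nxn value was 17.1 CPM in replicate 4, against 5.89 CPM in the next (a gap of 0.815 of the range, above the limit, n = 5).

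For Vwa3a, sgUba1 and sgNC libraries lay apart in opposite directions in the tumor lines. Its mean in B16-BL6 tumors with sgUba1 was 1.58 times that with sgNC, all 4 above all 3 (nearest values 0.629 and 0.626 CPM, log2 fold change 0.68, adjusted p 0.315), while in Myc-CaP tumors and in Myc-CaP cells all libraries with sgUba1 lay below all with sgNC. The difference between the lines was not tested.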

How the results depend on the processing

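Of the values for single genes, 107 of 114 stayed the same under other settings, and 239 of 262 did when 1 library was left out. The same means direction and side of the threshold for tested values, and a move of less than 1 SD for the Myc-CaP sgUba1 and sgNC contrasts, for which no test is read. Of the counts of genes past the threshold, 32 of 53 stayed within 1.5 times under other settings and 62 of 117 did without 1 library. The causes were not tested.

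With DESeq2 the counts were 558 for TAK-243 tumors (25 by edgeR), 723 for Uba1 OE tumors (4), 2651 for IFN-γ in parental cells (4216), 395 for IFN-γ in sgNC cells (603), 759 for IFN-γ in sgUba1 cells (443), 532 for B16-BL6 tumors (127) and 1862 for Myc-CaP sgUba1 tumors (492). With RLE scaling they were 292 for IFN-γ in sgNC cells and 414 for the difference of IFN-γ responses (720). Without the filter they were 45 for TAK-243 tumors, 33 for Uba1 OE tumors, 1460 and 1415 for IFN-γ in sgNC and sgUba1 cells, 1487 for the difference of responses and 204 for B16-BL6 tumors. Tumors alone gave 47 and cells alone 50 genes in the search over lines (5).

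The replicate numbers were not used as pairs. Deviations from group means correlated between samples of the same number at -0.284 to 0.477 (vehicle and TAK-243 tumors), -0.107 to 0.340 (B16-BL6 tumors) and, in cells, up to 0.383 (sgNC and sgUba1 with PBS). With a replicate block, which uses only the numbers that all groups share and so fewer tumors, the counts were 8 for TAK-243 tumors, 0 for Uba1 OE tumors, 768 for IFN-γ in sgUba1 cells and 4 for Myc-CaP sgUba1 tumors. The log2 fold change with the replicate block turned to 0.0412 for Arhgap44 in TAK-243 tumors (-0.01) and to -0.12 for Nxn in B16-BL6 tumors (0.07), and it was 2.43 for Nxn in Myc-CaP sgUba1 tumors (3.89).

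With 1 library left out, counts ran from 1 to 299 for TAK-243 tumors, 0 to 386 for Uba1 OE tumors, 8940 to 9669 for TAK-243 cells, 9107 to 10013 for TAK-243 with IFN-γ, 2835 to 4221 for IFN-γ in parental, 35 to 2721 in sgNC and 39 to 2608 in sgUba1 cells, 14 to 2622 for the difference of responses, 2932 to 5641 and 4345 to 7177 for sgUba1 against sgNC cells with PBS and IFN-γ, 43 to 320 for B16-BL6 tumors, 10 to 692 for Myc-CaP sgUba1 tumors and 4 to 6 for the search over lines. The lowest counts came without vehicle replicate 1 (TAK-243 tumors), EV replicate 2 (Uba1 OE), B16-BL6 sgNC replicate 1 and Myc-CaP sgNC replicate 2, the highest without TAK-243 replicate 5, Uba1 OE replicate 1, B16-BL6 sgUba1 replicate 4 and Myc-CaP sgUba1 replicate 2. Log2 fold changes that changed sign ran from -0.14 to 0.16 (Arhgap44) and -0.27 to 0.59 (Nxn) in TAK-243 tumors, -0.36 to 0.38 in Uba1 OE tumors (Arhgap44), -0.54 to 0.0491 (Vwa3a) and -0.0743 to 1.43 (Nxn) in TAK-243 cells, -0.39 to 0.0092 (Arhgap44) and -0.88 to 0.39 (Nxn) for IFN-γ in sgUba1 cells, -0.52 to 0.18 for the difference of responses (Vwa3a), -0.61 to 0.32 for sgUba1 against sgNC PBS cells (Nxn) and -0.11 to 0.18 in B16-BL6 tumors (Nxn). Where a cell group is left with 1 library, that library is assumed to vary like the other groups.

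Depth limits the low genes most. Fbxl13 in cells and Arhgap44 in sgNC libraries rest on 0 to 2 counts, except Fbxl13 in TAK-243 cells. The sgRNA lines were grown from single cells and the labels name no clone, so guide and clone cannot be told apart in Myc-CaP or in B16-BL6.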
